A study of Rattus norvegicus with 9 samples.

Results

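The tumour necrosis factor (TNF) family was followed in bulk RNA from rat femurs after injury of the distal femoral growth plate, the cartilage at the knee end of the bone from which it lengthens. Its members were the rows of the gene count table named Tnf, Tnfsf or Tnfrsf followed by a number, apart from Tnfsf11, Tnfrsf11a and Tnfrsf11b, which control osteoclast formation and were set aside by the rule. The rule found 28 genes of 31125, 11 ligands and 17 receptors, all annotated as protein coding and none with a recurring symbol. The 9 libraries came from femurs of male rats taken at day 7, 3 in each of 3 groups. GMTT femurs had the growth plate injury and a hydrogel that the labels call GMTT and that, per the series title, is made from GelMA (a gelatin with methacrylate groups), TPGS (a form of vitamin E) and tea polyphenols. GPI femurs had the injury with no hydrogel named. Sham femurs had sham surgery. The sample labels of GMTT call its growth plate intact, whereas the design text places the gel after the injury, and both are kept here as given. The sources used here give neither strain, age nor pooling, nor how much muscle or marrow stayed on the bone. The p-values below therefore cover the spread among libraries, which may be technical in part.

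TNF family ligands are made mostly as membrane proteins that act as trimers, on the cell surface or after shedding, and each binds 1 or a few receptors of the matching family. Receptors with a death domain can trigger apoptosis or inflammation, and the others recruit TRAF adaptors that switch on NF-kB and kinase signalling. In marrow these pairs are known for control of lymphocyte survival and activation, and in injured tissue TNF itself is a classic early inflammatory cytokine.

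The libraries held between 15927429 and 19715997 counts. Muscle and marrow genes differed widely between the groups, and these values stand beside every family result below. The 13 skeletal muscle markers measured held 2.59% to 2.78% of all counts in GMTT, 14.5% to 14.8% in GPI and 0.269% to 0.284% in Sham. The 8 pan-leukocyte genes held 0.303% to 0.31% in GMTT, 0.00282% to 0.00294% in GPI and 0.278% to 0.287% in Sham, with none of the 8 at 0 in any group. T and NK cell markers held 0.0156% to 0.0168% in GMTT, 0.000132% to 0.000179% in GPI and 0.0129% to 0.013% in Sham, and Cd8b, Trat1 and Ncr1 had no count in GPI. Nkg7 carried most of this share in GMTT and Sham, with 5645 and 4541 counts, and the next marker, Lck, had 712 and 759. Of 12 T and NK markers tested in GPI against Sham, 10 fell and 2 were not called (median log2 fold change -3.875). B cell markers held 0.0699% to 0.0721% in GMTT, 0.0013% to 0.00164% in GPI and 0.115% to 0.118% in Sham, and Vpreb1 had no count in GPI. Ebf1 carried most of that GPI share, with 717 counts, and the next B cell marker, Cd22, had 30. Osteoblast and chondrocyte markers, which define the labelled tissue, were counted in all groups, with osteoblast markers at 0.92% to 1.01% of counts in GMTT, 0.33% to 0.348% in GPI and 0.687% to 0.74% in Sham, and chondrocyte markers at 0.0386% to 0.0412%, 0.021% to 0.0211% and 0.0255% to 0.0272% in the same order. Single genes carried most of these 2 shares in GPI. Col1a1 had 183638 counts there and the next osteoblast marker, Bglap, 2858. Col11a1 had 9899 and the next chondrocyte marker, Acan, 915. In GPI against Sham 9 of 10 osteoblast and osteocyte markers fell and 1 rose. Of 8 chondrocyte markers tested 5 rose and 2 fell. Over all genes tested, 40.1% were called higher and 48.1% lower. What part the marker shares have in the family's differences was not tested. In bulk RNA, fewer cells of a type and less RNA per cell cannot be told apart.

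In GPI femurs the receptors Tnfrsf14, Tnfrsf13c and Tnfrsf13b and the ligand Tnfsf14, all genes of lymphocyte signalling, were at or near 0 counts, and Tnfrsf12a, the receptor for TWEAK, was high. In GMTT femurs these 4 genes were far above GPI, and Tnfrsf12a lay between GPI and Sham. Tnf itself was scarce and lowest in GPI. Counts were scaled by TMM and tested in edgeR's quasi-likelihood model with Benjamini-Hochberg adjustment over 15936 genes, called at an adjusted p below 0.05. Of the 28 members, 23 had enough counts to be tested. In GPI against Sham 8 members rose, 12 fell and 3 were not called, with a median log2 fold change of -0.32, and 19 of the 23 had groups that did not overlap. Over all genes tested, 88.2% were called in this contrast (40.1% higher, 48.1% lower), 88.3% did not overlap and the median was -0.19. In GMTT against GPI 14 members rose, 8 fell and 1 was not called, with a median of 1.31 and 21 without overlap, against 85.9% of all genes called (45.7% higher, 40.2% lower), 86.2% without overlap and a median of 0.12. In GMTT against Sham 14 rose, 3 fell and 6 were not called, with a median of 0.41 and 16 without overlap, against 57.8% called (29.5% higher, 28.3% lower), 61.7% without overlap and a median of -0.0031. Most genes were called in the contrasts with GPI, so there the count of members called says little about the family as such. Each pair of contrasts shares a group of libraries, and their values are set side by side without a comparison of them.

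**Figure D1:**
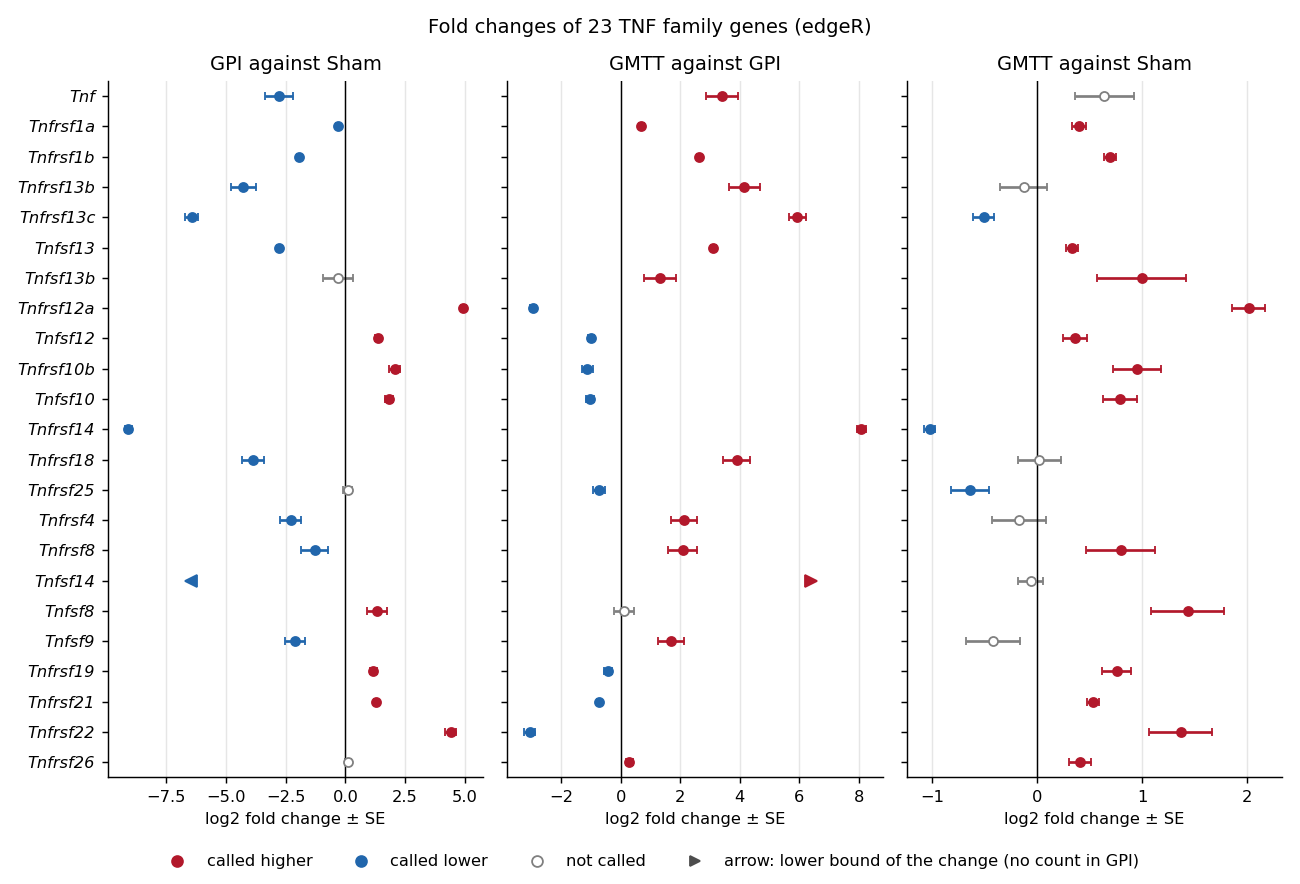
Log2 fold change (x axis) of the 23 tested family members (rows) in the 3 contrasts (panels), with bars of 1 SE and filled points for called genes. Arrows mark Tnfsf14, which had no count in GPI, at its lower bound, and Tnfrsf12a and Tnfrsf22 lie at the high end in GPI against Sham while Tnfrsf14, Tnfrsf13c and Tnfrsf13b lie at the low end.

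TMM factors were 1.28 to 1.30 in GMTT, 0.600 to 0.604 in GPI and 1.28 to 1.29 in Sham. With library sizes only, the median of all genes was -1.28 for GPI against Sham, 1.22 for GMTT against GPI and 0.0065 for GMTT against Sham. The split of all genes was then 22.1% higher and 70.3% lower in GPI against Sham, 72.2% and 18.9% in GMTT against GPI and 30.1% and 27.4% in GMTT against Sham. For the family it was 6 members higher and 15 lower in GPI against Sham, 17 and 2 in GMTT against GPI and 15 and 3 in GMTT against Sham. Directions below are therefore relative to the TMM scale, and where a member's direction or call differs without it, this is said beside its value.

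The family's transcripts per unit of gene length had a different leading gene in each group. In the authors' FPKM, a count per length, Tnfsf13 led in GMTT with 20.9% ± 0.444 of the summed family value, followed by Tnfrsf1a with 15.2% ± 0.913 and Tnfrsf14 with 14.0% ± 0.0907 (SD, n = 3). In GPI Tnfrsf12a alone held 38.1% ± 1.62, followed by Tnfrsf21 with 16.9% ± 0.403 and Tnfrsf1a with 10.1% ± 0.368. In Sham Tnfrsf14 led with 30.2% ± 0.373, followed by Tnfsf13 with 17.5% ± 0.608 and Tnfrsf1a with 12.2% ± 0.580. These shares use no scaling between libraries. Tnfrsf12a held 4.65% in GMTT and 1.23% in Sham, and Tnfrsf14 held 0.0547% in GPI.

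**Figure D2:**
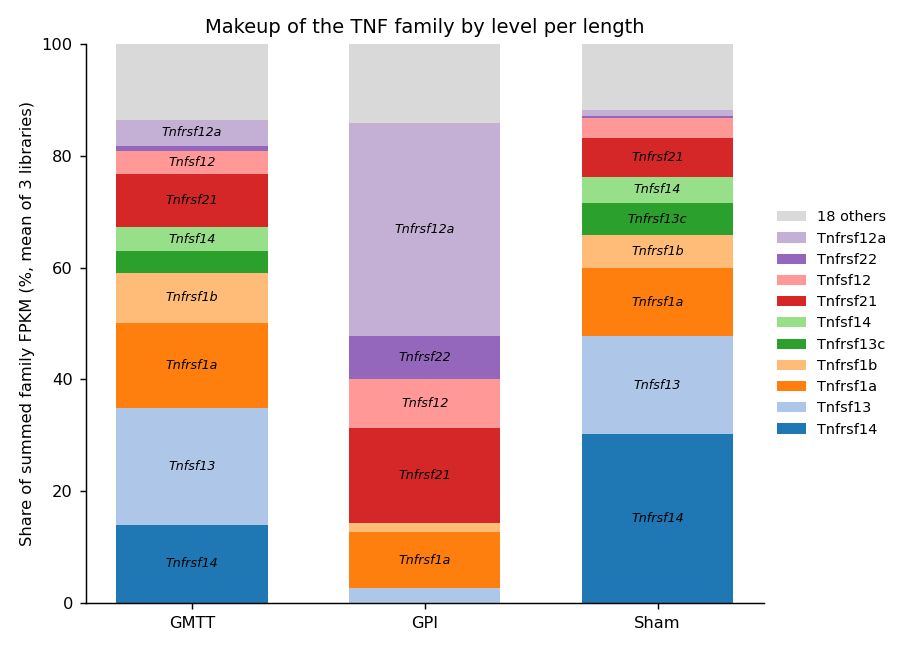
Share of the family's summed FPKM (y axis, percent, mean of 3 libraries) held by 10 leading genes and by the 18 others together, for GMTT, GPI and Sham from left to right. Tnfsf13 is the largest named segment in GMTT, Tnfrsf12a in GPI and Tnfrsf14 in Sham.

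Upstream sequence of 5 members that carry these differences is shown first, from the RefSeq promoter table of build GRCr8, which had an entry for 22 of the 28 members. They are the 2 members highest and the 2 lowest in GPI against Sham among those with an entry, and Tnf. Each run is the 250 bases before the annotated start, 5′ to 3′ on the gene's strand. Capitals mark a TATA box (TATAAA), a GC box (GGGCGG) or the NF-kB consensus, on either strand, and no marked motifs overlap.
Tnfrsf12a (chr10:13213649-13213898, minus strand): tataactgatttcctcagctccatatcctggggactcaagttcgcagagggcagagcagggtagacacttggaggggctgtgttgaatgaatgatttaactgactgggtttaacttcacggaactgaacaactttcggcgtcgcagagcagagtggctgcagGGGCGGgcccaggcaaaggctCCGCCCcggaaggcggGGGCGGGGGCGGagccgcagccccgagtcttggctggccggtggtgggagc
Tnfrsf22 (chr1:208285824-208286073, minus strand): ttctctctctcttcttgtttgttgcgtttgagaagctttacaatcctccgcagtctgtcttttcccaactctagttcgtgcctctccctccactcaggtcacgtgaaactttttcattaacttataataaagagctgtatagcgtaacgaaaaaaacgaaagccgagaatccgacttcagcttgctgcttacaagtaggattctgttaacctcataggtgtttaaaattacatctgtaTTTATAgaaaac
Tnf (chr20:3626435-3626684, plus strand): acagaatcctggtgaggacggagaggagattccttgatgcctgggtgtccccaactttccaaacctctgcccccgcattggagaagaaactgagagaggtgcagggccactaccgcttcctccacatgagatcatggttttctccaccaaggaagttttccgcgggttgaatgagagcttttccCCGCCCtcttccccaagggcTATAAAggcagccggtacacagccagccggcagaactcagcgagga
Tnfrsf13c (chr7:115618648-115618897, minus strand): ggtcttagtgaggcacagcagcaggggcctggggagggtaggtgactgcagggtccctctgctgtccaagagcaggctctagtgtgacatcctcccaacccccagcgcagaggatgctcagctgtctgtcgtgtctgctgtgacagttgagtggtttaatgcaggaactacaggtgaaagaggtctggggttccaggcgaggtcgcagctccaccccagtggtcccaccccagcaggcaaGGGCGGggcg
Tnfsf14 (chr9:2160087-2160336, minus strand): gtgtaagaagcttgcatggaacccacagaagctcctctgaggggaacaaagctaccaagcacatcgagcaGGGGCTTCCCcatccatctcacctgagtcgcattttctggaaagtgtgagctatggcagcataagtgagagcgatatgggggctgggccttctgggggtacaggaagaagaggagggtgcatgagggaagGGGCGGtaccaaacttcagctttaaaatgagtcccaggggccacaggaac
Tnfrsf12a held 4 GC boxes and no TATA box. Tnf held a TATA box starting 46 bases before the start and a GC box at 66 bases before it. Tnfsf14 held an NF-kB match at 180 bases before the start and a GC box at 50, Tnfrsf13c a GC box at 10, and Tnfrsf22, for which the first of 2 table entries is shown, a TATA match at 12. Over all 33469 windows of this length in the table, 12.9% held TATAAA, 30.5% GGGCGG and 6.33% the NF-kB consensus, and among the 22 members with an entry the counts were 5, 11 and 2. A match describes these letters alone.

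Tnf and its receptors were lowest in GPI, and both receptors were highest in GMTT. Tnf (ENSRNOG00000070745, chromosome 20, 3622011 to 3624629, plus strand; build mRatBN7.2, as for all genes below) encodes the cytokine that names the family. It read 1.66, 1.05 and 1.23 normalised CPM in the GMTT libraries, 0, 0.252 and 0.0963 in GPI and 0.783, 0.736 and 1.01 in Sham. These were few reads, 91 counts over the GMTT libraries, 4 over GPI and 55 over Sham, and no GPI library reached the lowest of either other group. Its log2 fold change was -2.78 (SE 0.59, adjusted p = 7.71e-05) in GPI against Sham, and by counts alone the ratio was 7.18-fold lower with a 95% counting interval of 2.65 to 27.3. For GMTT against GPI it was 3.42 (SE 0.54, adjusted p = 7.65e-07), a counting ratio of 11.3-fold higher (4.25 to 42.2). Without the second GPI library, which held 3 of the 4 GPI counts, these changes were -4.05 and 4.69, still called. In GMTT against Sham every GMTT library was above every Sham library, but the change of 0.64 (SE 0.28) missed the threshold at an adjusted p of 0.05004. Apart from leaving out single libraries, it passed under 5 of the 7 other settings. Among these were library sizes only (0.65, adjusted p = 0.0469) and the fit of the 6 GMTT and Sham libraries alone (0.65, adjusted p = 0.0369). Over all alternatives the adjusted p ran from 0.0341 to 0.264.

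Tnfrsf1b (ENSRNOG00000016575, chromosome 5, 157070642 to 157104206, minus strand) encodes the receptor without a death domain that is found mainly on blood and endothelial cells. It read 72.0, 77.1 and 74.4 normalised CPM in the GMTT libraries, 12.6, 11.3 and 12.2 in GPI and 46.4, 46.6 and 45.2 in Sham, with no overlap between any groups. It fell in GPI against Sham (log2 fold change -1.94, SE 0.076, adjusted p = 1.62e-21), rose in GMTT against GPI (log2 fold change 2.63, SE 0.072, adjusted p = 1.19e-25) and rose in GMTT against Sham (log2 fold change 0.69, SE 0.054, adjusted p = 1.36e-12). Tnfrsf1a (ENSRNOG00000031312, chromosome 4, 158150820 to 158163591, plus strand), the widely expressed death domain receptor, moved less. It read 56.2, 51 and 45.6 normalised CPM in the GMTT libraries, 29.0, 33.4 and 31.8 in GPI and 40.0, 35.6 and 40.2 in Sham, in the same order of groups and again without overlap. The changes were -0.30 (SE 0.079, adjusted p = 0.000956) in GPI against Sham, 0.70 (SE 0.077, adjusted p = 8.58e-10) in GMTT against GPI and 0.40 (SE 0.069, adjusted p = 9.93e-06) in GMTT against Sham. The gene overlaps Plekhg6 on the opposite strand by 623 bases, and the sources used here do not give the strand setting of the authors' counting.

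Set per length within a library, which needs no scaling, Tnfrsf1b to Tnfrsf1a was 0.516, 0.609 and 0.657 in GMTT, 0.175, 0.136 and 0.155 in GPI, and 0.467, 0.528 and 0.452 in Sham. All GPI values were below all others, while GMTT and Sham overlapped. The exact 2-sided permutation test gave p = 0.1 for GPI against Sham and for GMTT against GPI, the smallest p that 3 against 3 allows, and 0.167 after adjustment over the 10 ratio comparisons made, which were chosen after the values were seen.

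**Figure D3:**
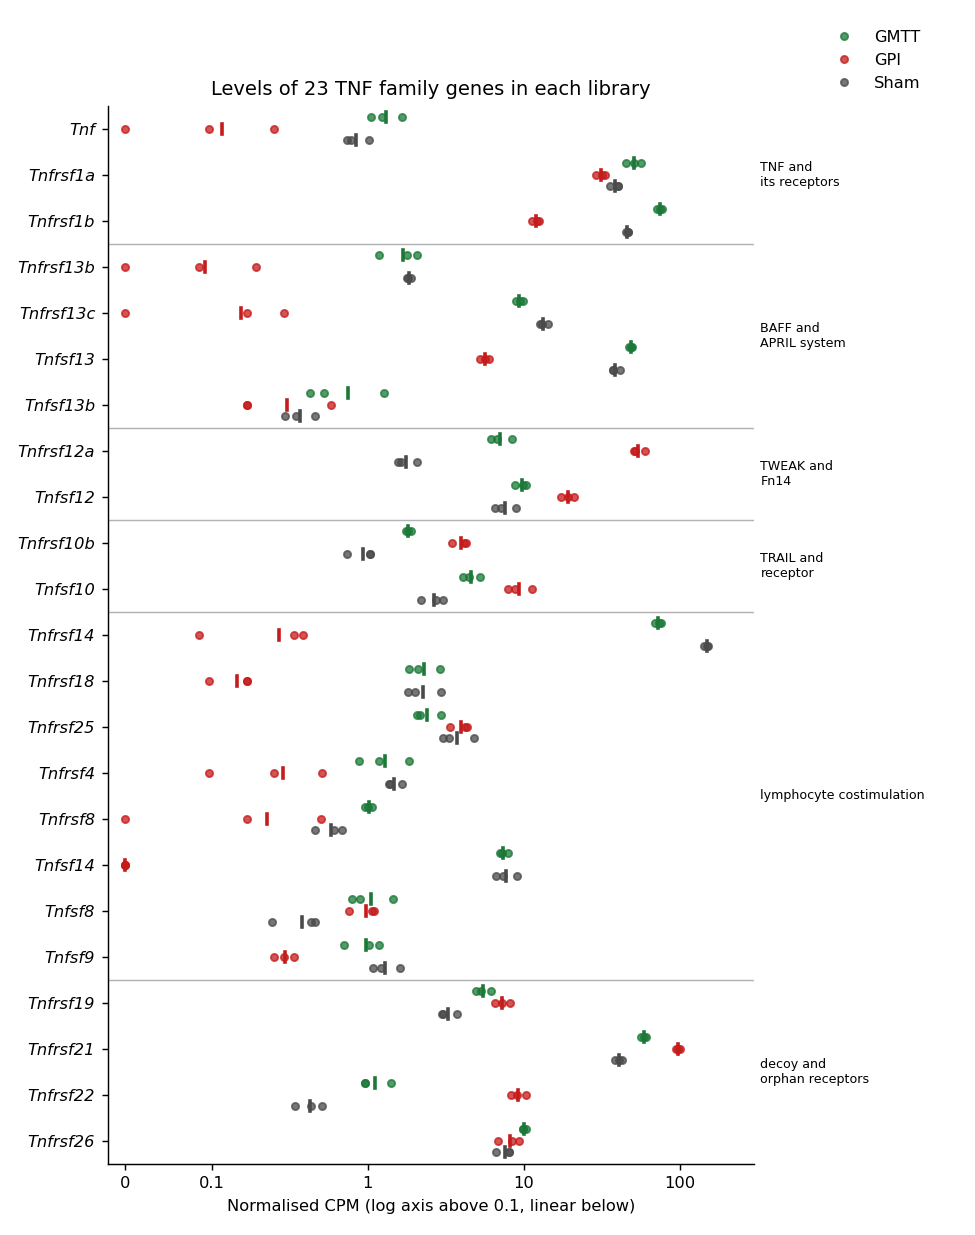
Normalised CPM (x axis, logarithmic above 0.1 and linear below) of the 23 tested family members (rows, grouped by role), 1 point per library and a short bar at each group's mean, with GMTT above GPI above Sham. For Tnfrsf12a and Tnfrsf22, among others, all 3 GPI points lie above those of the other groups, and for Tnfrsf14, Tnfsf14 and Tnfrsf13c, among others, below them.

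TWEAK (Tnfsf12) and its receptor Fn14 (Tnfrsf12a) both rose in GPI against Sham, and the receptor gave the largest rise of the tested members. Fn14 is a small receptor that recruits TRAFs and is known to be induced in injured and denervated skeletal muscle. Tnfrsf12a (ENSRNOG00000003546, chromosome 10, 12689890 to 12709045, minus strand) read 8.36, 6.72 and 6.14 normalised CPM in the GMTT libraries, 51.4, 59.8 and 51 in GPI and 2.06, 1.65 and 1.56 in Sham. No groups overlapped, with GPI highest, GMTT between and Sham lowest. It rose in GPI against Sham (log2 fold change 4.95, SE 0.12, adjusted p = 4.95e-27), fell in GMTT against GPI (log2 fold change -2.93, SE 0.096, adjusted p = 1.53e-23) and rose in GMTT against Sham (log2 fold change 2.02, SE 0.16, adjusted p = 1.22e-12). The direction held with library sizes only, at 3.86, -1.83 and 2.03 in the same order. In the files' annotation the gene overlaps 3 others: Thoc6 on the same strand over 6875 bases, and Hcfc1r1 over 1774 and Bicdl2 over 8440 bases on the opposite strand. Thoc6 had 1180 counts over the GMTT libraries, 538 over GPI and 1340 over Sham. Hcfc1r1 had 908, 1162 and 755 in the same order, highest in GPI as Tnfrsf12a was, and Bicdl2 had 33, 2 and 26. How the overlaps bear on the Tnfrsf12a counts was not tested.

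The skeletal muscle markers had the same order of groups as Tnfrsf12a. All 13 rose in GPI against Sham (median 6.69), fell in GMTT against GPI (median -3.60) and rose in GMTT against Sham (median 3.20). Over all genes 88.2%, 85.9% and 57.8% were called in these contrasts. Of 7 adipocyte markers 6 rose and 1 fell in GPI against Sham (median 2.87). In GMTT against GPI 1 rose and 5 fell (median -0.519), and in GMTT against Sham 6 rose and none fell (median 1.55). Of 8 endothelium markers 7 rose and 1 fell in GPI against Sham (median 1.62). In GMTT against GPI 1 rose and 7 fell (median -1.355), and in GMTT against Sham 6 rose and none fell (median 0.28). Whether RNA of muscle or of these other cells accounts for Tnfrsf12a was not tested.

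Tnfsf12 (ENSRNOG00000045670, chromosome 10, 54403870 to 54413213, minus strand) read 8.83, 10.4 and 9.87 normalised CPM in the GMTT libraries, 17.4, 21.0 and 19.3 in GPI and 6.56, 7.19 and 8.87 in Sham. GPI was above both other groups, and GMTT and Sham overlapped, the highest Sham library lying just above the lowest GMTT library. It rose (log2 fold change 1.35, SE 0.11, adjusted p = 8.21e-13) in GPI against Sham, fell (log2 fold change -0.98, SE 0.11, adjusted p = 4.92e-10) in GMTT against GPI and rose (log2 fold change 0.36, SE 0.11, adjusted p = 0.00626) in GMTT against Sham. The fall in GMTT against GPI became 0.12 with library sizes only, not called. The last call rested on the first Sham library, without which it was 0.27 and not called. Per length, Tnfrsf12a to Tnfsf12 was 1.44, 0.978 and 0.943 in GMTT, 4.49, 4.32 and 4.02 in GPI and 0.475, 0.347 and 0.267 in Sham, with no overlap between any groups (exact permutation p = 0.1 in each comparison, the smallest possible, and 0.167 adjusted over the 10 ratio comparisons).

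TRAIL (Tnfsf10), a death ligand, and its receptor Tnfrsf10b were also highest in GPI. Tnfsf10 (ENSRNOG00000067968, chromosome 2, 110207916 to 110225135, plus strand) read 4.48, 4.09 and 5.22 normalised CPM in the GMTT libraries, 11.3, 7.90 and 8.77 in GPI and 3.03, 2.73 and 2.21 in Sham, and no groups overlapped. Tnfrsf10b (ENSRNOG00000038483, chromosome 15, 44840386 to 44867467, plus strand) read 1.75, 1.89 and 1.80 normalised CPM in the GMTT libraries, 4.15, 3.45 and 4.24 in GPI and 1.03, 1.04 and 0.736 in Sham, likewise without overlap, GPI highest and Sham lowest. In GPI against Sham the ligand rose (log2 fold change 1.82, SE 0.16, adjusted p = 4.60e-12) and so did the receptor (log2 fold change 2.07, SE 0.22, adjusted p = 2.71e-10). In GMTT against GPI the ligand fell (log2 fold change -1.02, SE 0.15, adjusted p = 1.35e-07), as did the receptor (log2 fold change -1.12, SE 0.19, adjusted p = 3.49e-06). With library sizes only these values were 0.079 for the ligand and -0.014 for the receptor, and neither was called. Against Sham, GMTT had more of the ligand (log2 fold change 0.79, SE 0.16, adjusted p = 0.000111) and of the receptor (log2 fold change 0.95, SE 0.22, adjusted p = 0.000562). Their ratio per length averaged 0.244 in GMTT, 0.262 in GPI and 0.214 in Sham, and the groups overlapped in each comparison (exact permutation p = 0.2 for GPI against Sham, 0.6 for GMTT against GPI and 0.2 for GMTT against Sham).

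The BAFF and APRIL system, which keeps B cells and plasma cells alive, fell to a few counts in GPI at its receptors. Tnfrsf13c (ENSRNOG00000007664, chromosome 7, 113736055 to 113738517, minus strand), the BAFF receptor of B cells, read 8.88, 9.40 and 9.87 normalised CPM in the GMTT libraries, 0.169, 0 and 0.289 in GPI and 14.2, 13.1 and 12.7 in Sham. Every GPI library was under every other, and every GMTT library under every Sham library. Over the groups these were 647 counts in GMTT, 5 in GPI and 871 in Sham, so GPI was 91.0-fold lower than Sham by counting (38.8 to 280.9) and GMTT 64.0-fold higher than GPI (27.3 to 197.7). The fitted changes were -6.44 (SE 0.27, adjusted p = 1.66e-20), 5.94 (SE 0.29, adjusted p = 1.50e-18) and, for GMTT against Sham, -0.51 (SE 0.10, adjusted p = 6.06e-05). With single GPI libraries left out the first ranged from -5.85 without the second to -7.20 without the third, and the next from 5.34 to 6.70. Beside the fall in GMTT against Sham, all 12 B cell markers fell in that contrast (median -0.73), where 28.3% of all genes were called lower. The markers' part in the fall of Tnfrsf13c was not tested.

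Tnfrsf13b (ENSRNOG00000002304, chromosome 10, 45801860 to 45822987, plus strand) encodes TACI, a receptor for both BAFF and APRIL. It read 1.79, 2.07 and 1.18 normalised CPM in the GMTT libraries, 0.0847, 0 and 0.193 in GPI and 1.81, 1.91 and 1.79 in Sham, with GPI under both other groups and GMTT overlapping Sham. GPI had 3 counts against 120 in Sham, a ratio of 20.9-fold lower (6.98 to 102.7), and GMTT had 116, 19.1-fold higher than GPI (6.38 to 94.0). The fitted changes were -4.28 (SE 0.52, adjusted p = 6.05e-09) and 4.16 (SE 0.53, adjusted p = 1.65e-08), and -5.25 and 5.12 without the third GPI library. GMTT against Sham gave -0.13 (SE 0.22, adjusted p = 0.644), not called.

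The ligands of this system differed from each other. Tnfsf13 (ENSRNOG00000014171, chromosome 10, 54400065 to 54403042, minus strand) encodes APRIL, which myeloid cells of the marrow make. It read 49.7, 48.9 and 47.4 normalised CPM in the GMTT libraries, 5.25, 5.97 and 5.68 in GPI and 37.4, 37.2 and 41.3 in Sham, without overlap between any groups. It fell in GPI against Sham (log2 fold change -2.78, SE 0.094, adjusted p = 3.27e-23), rose in GMTT against GPI (log2 fold change 3.11, SE 0.092, adjusted p = 7.82e-25) and rose in GMTT against Sham (log2 fold change 0.33, SE 0.060, adjusted p = 1.81e-05). Beside this, 8 of 12 monocyte and macrophage markers rose and 3 fell in GMTT against Sham (median 0.34). Of 11 neutrophil markers tested, 8 rose and none fell (median 0.40). Over all genes 29.5% were called higher and 28.3% lower in this contrast. Those monocyte markers held 0.619% to 0.646% of counts in GMTT, 0.00838% to 0.00916% in GPI and 0.583% to 0.624% in Sham, and the neutrophil list 1.21% to 1.27%, 0.000549% to 0.00072% and 1.0% to 1.08% in the same order. Lyz2 carried most of the monocyte share in GMTT and Sham, with 283167 and 261158 counts, and had 1422 in GPI. In GPI against Sham all 12 monocyte markers fell (median -2.74), from -0.33 for Cd14 to -6.58 for Lyz2, beside 48.1% of all genes called lower. No marker of either list was at 0 in a group, and their part in the result was not tested. The gene lies beside Tnfsf12 on the same strand, with no overlap in the files' annotation, and the neighbours went in opposite directions in GPI. Tnfsf13b, the BAFF ligand, was scarce and read 0.427, 1.27 and 0.527 normalised CPM in the GMTT libraries, 0.169, 0.168 and 0.578 in GPI and 0.294, 0.346 and 0.460 in Sham, and all 3 groups overlapped. Its change was -0.32 (SE 0.63, adjusted p = 0.635) in GPI against Sham, not called, but with library sizes only it was -1.38 and called. It was called higher in GMTT against GPI at 1.31 (SE 0.54, adjusted p = 0.026) and in GMTT against Sham at 1.0 (SE 0.42, adjusted p = 0.0442). Neither was called in DESeq2. The first call was lost without any of 3 single libraries, at 0.69 without the second GMTT library, 1.03 without the first GPI library and 1.02 without the second, and it was 2.09 without the third GPI library. The other was lost without any of 5, at 0.37 without the second GMTT library and 0.87 to 1.0 without the first or second library of GPI or Sham.

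Ligands and receptors of lymphocyte costimulation made up the largest group, 12 genes of which 8 were tested. In GPI against Sham 6 fell, 1 rose and 1 was not called (median -2.21). In GMTT against GPI 6 rose, 1 fell and 1 was not called (median 2.11), and in GMTT against Sham 2 rose, 2 fell and 4 were not called (median -0.12). The shares of all genes called were 88.2%, 85.9% and 57.8% in these contrasts, so 7 of 8 in each contrast with GPI is near the background. LIGHT (Tnfsf14) and its receptor HVEM (Tnfrsf14), which also binds inhibitory partners on lymphocytes, were nearly absent from GPI. Tnfsf14 (ENSRNOG00000047730, chromosome 9, 2069104 to 2073216, minus strand) read 7.21, 7.91 and 7.07 normalised CPM in the GMTT libraries, 0, 0 and 0 in GPI and 7.39, 9.09 and 6.62 in Sham. With 510 counts in GMTT, 0 in GPI and 505 in Sham, it was at least 87.9-fold lower in GPI than in Sham and at least 84.0-fold higher in GMTT than in GPI, with a floor of 3 counts over the GPI group. GMTT and Sham overlapped and gave -0.062 (SE 0.12, adjusted p = 0.674), not called.

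Tnfrsf14 (ENSRNOG00000013820, chromosome 5, 165484262 to 165493703, minus strand) read 76.3, 73.3 and 70.0 normalised CPM in the GMTT libraries, 0.0847, 0.336 and 0.385 in GPI and 150.5, 144 and 152 in Sham. It had 5050 counts over GMTT, 9 over GPI and 9704 over Sham, so GPI was 563.2-fold lower than Sham by counting (296.6 to 1232) and GMTT 277.4-fold higher than GPI (146.0 to 606.9). In GMTT it was lower than in Sham (log2 fold change -1.02, SE 0.053, adjusted p = 5.21e-17), with no overlap. Per length, Tnfrsf14 to Tnfsf14 was 3.48, 3.04 and 3.26 in GMTT against 6.69, 5.19 and 7.56 in Sham (exact permutation p = 0.1, the smallest possible, and 0.167 adjusted). Beside this, all 12 erythroid markers (median -0.90) and all 12 B cell markers (median -0.73) fell in GMTT against Sham. Of 12 tested T and NK markers 9 rose and 1 fell (median 0.91). Of all genes, 29.5% were called higher and 28.3% lower in that contrast. The part of erythroid, B, T and NK cells in the fall of Tnfrsf14 was not tested.

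Of the other costimulatory members, Tnfrsf18, Tnfrsf4 and Tnfsf9 fell in GPI against Sham and rose in GMTT against GPI. Tnfrsf18 encodes GITR of regulatory T cells and averaged 2.28 ± 0.551 normalised CPM in GMTT, 0.145 ± 0.0418 in GPI and 2.26 ± 0.602 in Sham (SD, n = 3 each). Its changes were -3.88 (SE 0.46, adjusted p = 2.62e-09) in GPI against Sham and 3.90 (SE 0.45, adjusted p = 2.11e-09) in GMTT against GPI. Tnfrsf4, a receptor of activated T cells, changed by -2.30 and 2.13, and Tnfsf9, a ligand on antigen-presenting cells, by -2.12 and 1.70, all called. Without the first GPI library the values of Tnfrsf4 were -2.99 and 2.82. None of these 3 was called in GMTT against Sham, at 0.023, -0.17 and -0.42, with adjusted p of 0.931, 0.584 and 0.166.

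The CD30 ligand (Tnfsf8) and CD30 (Tnfrsf8) were both scarce. Tnfsf8 read 0.896, 0.791 and 1.45 normalised CPM in the GMTT libraries, 0.762, 1.09 and 1.06 in GPI and 0.245, 0.433 and 0.460 in Sham. GMTT and GPI overlapped and both lay above Sham. It rose in GPI against Sham (log2 fold change 1.32, SE 0.41, adjusted p = 0.00341), which with library sizes only was 0.24 and not called. It rose in GMTT against Sham (log2 fold change 1.43, SE 0.34, adjusted p = 0.00067) and gave 0.11 (SE 0.33, adjusted p = 0.764) in GMTT against GPI, not called, which with library sizes only was 1.20 and called. Tnfrsf8 read 1.07, 1.01 and 0.965 normalised CPM in the GMTT libraries, 0.169, 0.504 and 0 in GPI and 0.685, 0.606 and 0.460 in Sham, with GMTT above both other groups and GPI overlapping Sham. It rose in GMTT against GPI (log2 fold change 2.08, SE 0.49, adjusted p = 0.000272). Its fall in GPI against Sham (log2 fold change -1.29, SE 0.55, adjusted p = 0.0311) was not called in DESeq2 and was lost when any of 4 single libraries was left out, for example -0.78 without the third GPI library, while without the second GPI library it was -2.61. The rise in GMTT against GPI was 3.41 without that library. Its rise in GMTT against Sham (log2 fold change 0.79, SE 0.33, adjusted p = 0.0379) was likewise not called in DESeq2 or without any of 4 single libraries, the lowest value being 0.65 without the third Sham library.

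Tnfrsf25, the death domain receptor DR3 that costimulates T cells, was lowest in GMTT. It read 2.18, 2.94 and 2.06 normalised CPM in the GMTT libraries, 4.23, 3.36 and 4.33 in GPI and 3.03, 3.33 and 4.78 in Sham, with every GMTT library below every library of the other groups and GPI overlapping Sham. It fell in GMTT against GPI (log2 fold change -0.73, SE 0.20, adjusted p = 0.00168) and in GMTT against Sham (log2 fold change -0.64, SE 0.18, adjusted p = 0.00354), and gave 0.091 (SE 0.19, adjusted p = 0.657) in GPI against Sham, not called. The fall against Sham was -0.42 and not called without the third Sham library, which read highest. With library sizes only, GPI against Sham was -1.0 and called, and GMTT against GPI was 0.37 and not called, so for this gene direction depended on the scaling.

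With TMM no decoy or orphan receptor was called lower in GPI against Sham, as was so for TWEAK, TRAIL and their receptors. Of the 4, 3 rose and 1 was not called. Over all genes 88.2% were called in this contrast (40.1% higher, 48.1% lower), so the count says little about this group. With library sizes only Tnfrsf26 was called lower and Tnfrsf19 was not called, so this trait depended on the scaling. Tnfrsf22 (ENSRNOG00000070689, chromosome 1, 198840453 to 198856309, minus strand), which in mouse is a decoy that binds TRAIL without a death signal, read 1.41, 0.967 and 0.965 normalised CPM in the GMTT libraries, 8.30, 10.4 and 9.05 in GPI and 0.343, 0.433 and 0.506 in Sham. GPI was highest, GMTT between and Sham lowest, without overlap. It rose (log2 fold change 4.41, SE 0.22, adjusted p = 1.27e-18) in GPI against Sham, fell (log2 fold change -3.05, SE 0.18, adjusted p = 1.86e-16) in GMTT against GPI and rose (log2 fold change 1.37, SE 0.30, adjusted p = 0.000282) in GMTT against Sham. Its neighbour and paralogue Tnfrsf26 (ENSRNOG00000043486, chromosome 1, 198802971 to 198823418, minus strand) averaged 10.0 ± 0.208 normalised CPM in GMTT, 8.20 ± 1.28 in GPI and 7.57 ± 0.819 in Sham (SD, n = 3 each). Reads could be split between such paralogues by the counting, so both are uncertain. Tnfrsf26 gave 0.11 (SE 0.13, adjusted p = 0.397) in GPI against Sham, not called, and with library sizes only -0.98, called. It rose in GMTT against GPI (log2 fold change 0.30, SE 0.12, adjusted p = 0.0244), a call that was lost in DESeq2, at 0.25 with TMM without muscle, erythroid and mitochondrially encoded genes, at 0.17 without the second GPI library and at 0.27 without the third GMTT library. It also rose in GMTT against Sham (log2 fold change 0.41, SE 0.11, adjusted p = 0.00167).

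Tnfrsf21, the death receptor DR6, averaged 58.9 ± 1.95 normalised CPM in GMTT, 97.7 ± 2.81 in GPI and 40.7 ± 2.32 in Sham (SD, n = 3 each). It rose in GPI against Sham (log2 fold change 1.26, SE 0.058, adjusted p = 1.28e-19), fell in GMTT against GPI (log2 fold change -0.73, SE 0.056, adjusted p = 1.20e-13) and rose in GMTT against Sham (log2 fold change 0.53, SE 0.057, adjusted p = 1.58e-09). With library sizes only the GMTT against GPI value was 0.37, called in the other direction. Tnfrsf19 (TROY), a receptor known from hair follicle and neural development, changed by 1.17 (SE 0.15, adjusted p = 2.19e-08), -0.41 (SE 0.14, adjusted p = 0.00736) and 0.76 (SE 0.14, adjusted p = 3.15e-05) in the same 3 contrasts. With library sizes only it was 0.075 in GPI against Sham, not called, and 0.69 in GMTT against GPI, called in the other direction. Without the second GPI library the GMTT against GPI value was -0.32 and not called.

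**Figure D4:**
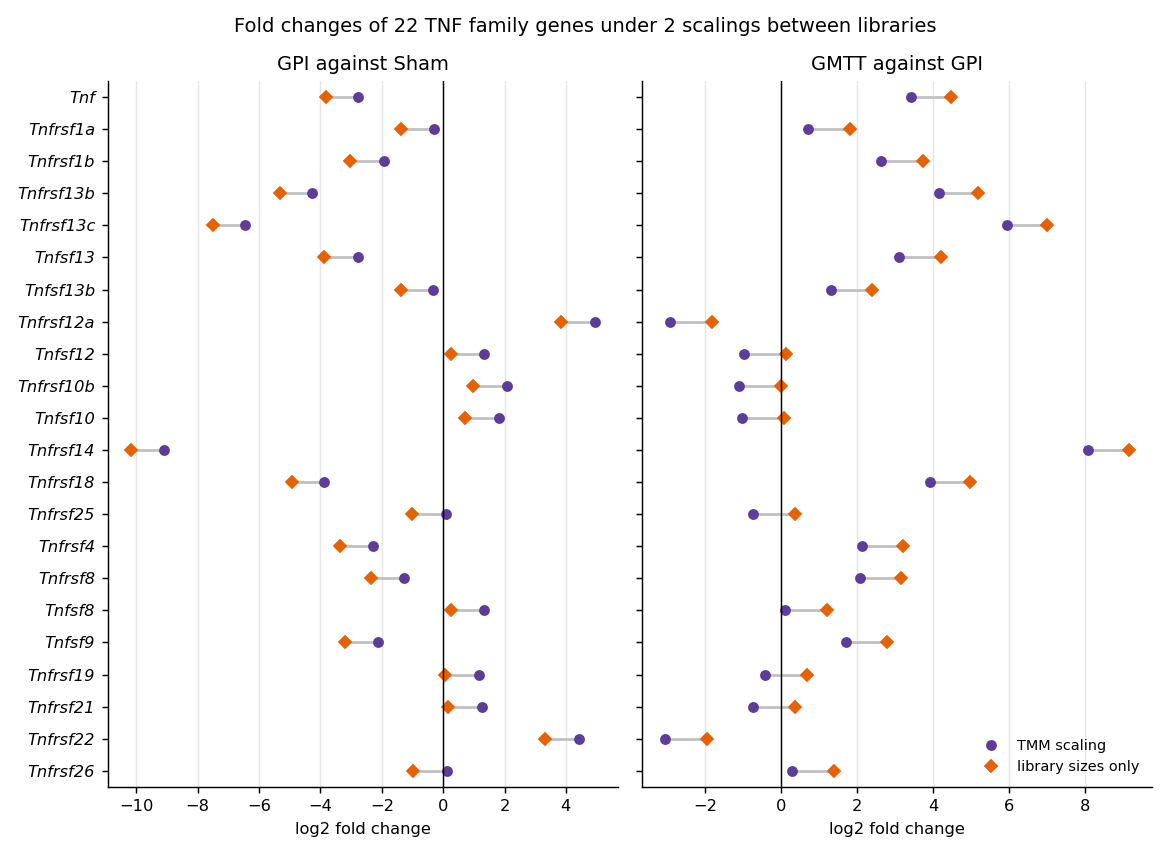
Log2 fold change (x axis) of 22 tested members (rows) with TMM scaling (circles) and with library sizes only (diamonds), for GPI against Sham and GMTT against GPI. The diamonds lie left of the circles in the first panel and right of them in the second, and members whose line crosses 0, such as Tnfrsf25 and Tnfrsf26 in GPI against Sham, change direction with the scaling.

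Low counts kept 5 members out of the test. Over the 3 libraries of each group, Tnfrsf9 had 24 counts in GMTT, 8 in GPI and 8 in Sham, a GMTT to Sham ratio of 2.84 by counting (1.23 to 7.31). Tnfsf15, the ligand of DR3, had 14 in GMTT, 3 in GPI and 5 in Sham. Tnfsf18, the ligand of GITR, had 14, 10 and 8 in the same order, and Tnfsf4 had 5, 2 and 4. Tnfrsf17, the plasma cell receptor BCMA, had 4 in GMTT, 0 in GPI and 4 in Sham. No test was made of these 5.

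The related genes outside the name rule were 43, of which 39 were tested: 12 of 15 relatives that carry other names and 27 of 28 adaptors and parts of the signal complex. Lta, Cd70, Edar and Tab1 were not tested. In GPI against Sham 8 rose, 26 fell and 5 were not called (median -0.57), in GMTT against GPI 25 rose, 8 fell and 6 were not called (median 0.41), and in GMTT against Sham 7 rose, 13 fell and 19 were not called (median -0.084). Over all genes the shares called were 88.2% (40.1% higher, 48.1% lower), 85.9% (45.7% and 40.2%) and 57.8% (29.5% and 28.3%) in these contrasts. The split rested in part on scaling or tool, since with library sizes only 3 rose in GPI against Sham and 2 fell in GMTT against GPI, and with DESeq2 7 fell in GMTT against Sham.

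Among the relatives, Eda2r, a receptor for the A2 form of ectodysplasin that is known in muscle wasting, went in the same directions as Tnfrsf12a. It averaged 0.987 normalised CPM in GMTT, 24.1 in GPI and 0.259 in Sham. It rose in GPI against Sham (log2 fold change 6.50, SE 0.19, adjusted p = 3.89e-25), fell in GMTT against GPI (log2 fold change -4.60, SE 0.15, adjusted p = 7.21e-24) and rose in GMTT against Sham (log2 fold change 1.89, SE 0.34, adjusted p = 1.80e-05). Eda, the ectodysplasin ligand, rose by 1.59 in GPI against Sham and fell (log2 fold change -1.19, SE 0.18, adjusted p = 5.67e-07) in GMTT against GPI, a call lost under library sizes only (-0.088). The nerve growth factor receptor Ngfr rose (log2 fold change 0.99, SE 0.29, adjusted p = 0.00215) in GPI against Sham, which was -0.10 with library sizes only, and by 0.81 in GMTT against Sham. Ltbr, the lymphotoxin beta receptor, rose by 0.46 in GMTT against Sham.

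The lymphocyte relatives Ltb, Cd27 and Cd40lg were nearly absent from GPI. Other relatives fell less in GPI against Sham, such as Cd40 (-3.50, 16 counts in GPI and 352 in Sham) and Fas (-1.21, 104 and 461). Ltb, the membrane lymphotoxin of lymphocytes, had 1014 counts in GMTT, 6 in GPI and 786 in Sham, so GPI was 68.4-fold lower than Sham (31.3 to 187) and GMTT 83.5-fold higher than GPI (38.3 to 228.2). Cd27, a receptor of T and B cells, had 72 in GMTT, 0 in GPI and 44 in Sham, at least 7.66-fold lower in GPI than in Sham and at least 11.9-fold higher in GMTT than in GPI. Cd40lg of helper T cells had 32, 0 and 26 in the same order, at least 4.53-fold lower in GPI than in Sham and at least 5.27-fold higher in GMTT than in GPI. In GMTT against Sham the called falls were Faslg, the death ligand of killer cells, at -1.14 (SE 0.34, adjusted p = 0.00501), and Relt, at -0.65 (SE 0.073, adjusted p = 4.90e-09).

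Of the 27 adaptors tested, 4 rose and 18 fell in GPI against Sham, 17 rose and 6 fell in GMTT against GPI, and 3 rose and 11 fell in GMTT against Sham, beside 88.2%, 85.9% and 57.8% of all genes called in these contrasts. Casp8, the initiator caspase of death receptors, changed by -2.55 (SE 0.11, adjusted p = 3.82e-20) in GPI against Sham and 2.48 (SE 0.11, adjusted p = 1.02e-19) in GMTT against GPI. Rhbdf2, which carries the TNF sheddase ADAM17 to the surface, changed by -2.34 and 2.45, and Fadd, the death domain adaptor, by -1.97 and 1.88, all called. Traf5 went the other way, at 1.70 (SE 0.10, adjusted p = 1.80e-16) and -1.32 (SE 0.097, adjusted p = 4.77e-14). Traf3, a brake on noncanonical NF-kB signalling, gave 1.13 and -0.93, but 0.038 and 0.18 with library sizes only. Cflar, the inhibitor of caspase-8, rose by 0.44 in GPI against Sham and was -0.65 with library sizes only. Tab2, a partner of the kinase TAK1, was -0.32 in GMTT against GPI and 0.78 with library sizes only.

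In GMTT against Sham the adaptor changes were small. Traf5 rose by 0.39, Cflar by 0.29 and Traf3 by 0.20. Traf4 fell, at -0.61, as did Tab3 at -0.42 and the kinase Chuk at -0.33 (log2 fold changes).

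**Figure D5:**
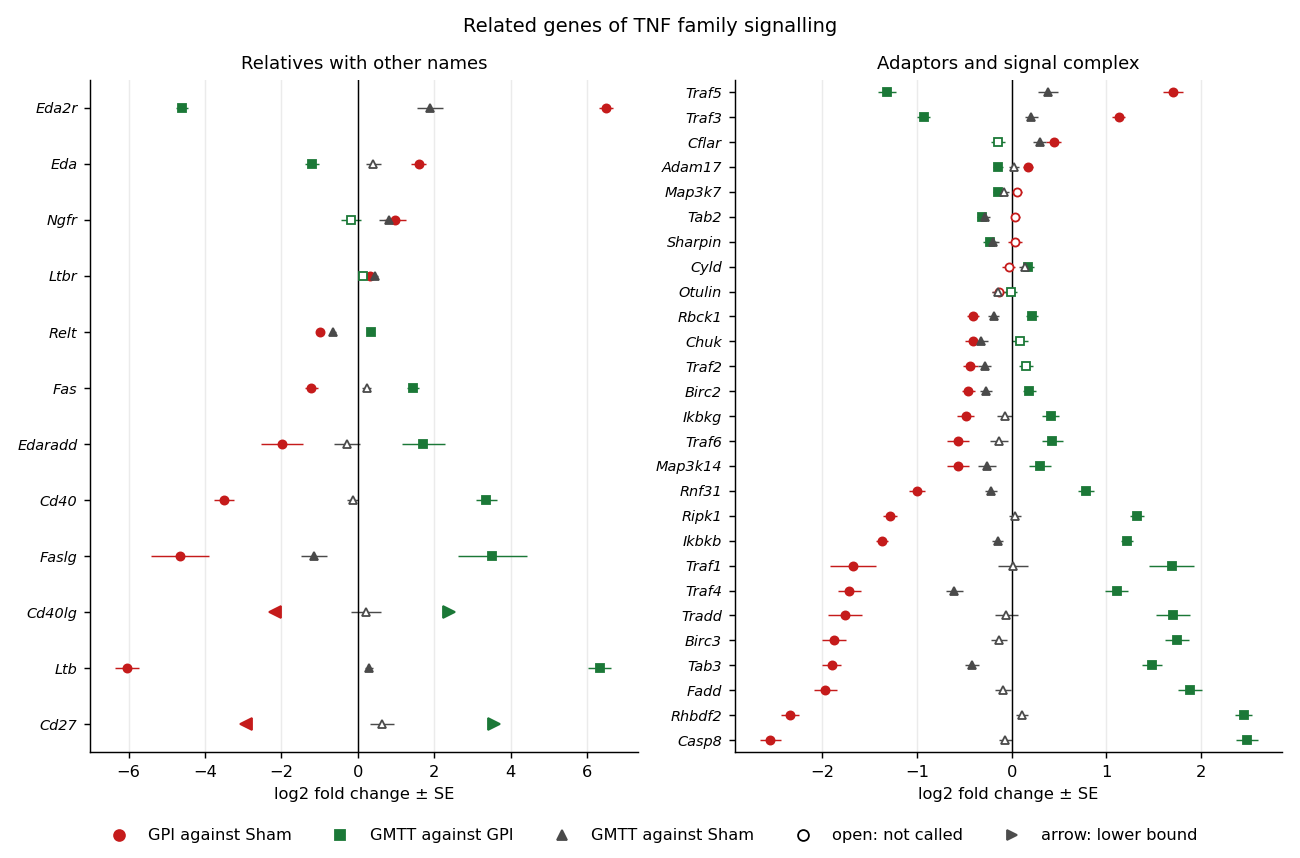
Log2 fold change (x axis, with bars of 1 SE) of the 39 tested related genes (rows) in the 3 contrasts (colours and shapes), relatives in the left panel and adaptors in the right, with filled points for called genes and arrows at the lower bound where GPI had no count. Eda2r lies far to the right in GPI against Sham, while Ltb lies far to the left, with Cd27 and Cd40lg shown only at their bounds.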

How the data were processed

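RNA was extracted from femurs with TRIzol, enriched by poly(A) selection and turned into stranded dUTP libraries read from both ends, per the labels' protocols. A table of raw read counts and a table of FPKM values were deposited by the authors, on build mRatBN7.2 as the submitters' processing notes say. The sources used here do not give the aligner, the counter or its strand setting. Each deposited FPKM was the count divided by gene length and by a constant of its library (largest relative deviation 5.22e-15), which was 1.291 to 1.301 times the total in GMTT, 0.5982 to 0.6079 in GPI and 1.313 to 1.317 in Sham, so FPKM carries a scaling between libraries. It was used only to order levels between genes and for shares and ratios within a library.

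Counts were tested in edgeR 4.0.16 (R 4.3.3; robust quasi-likelihood F test, 2-sided, TMM, default low-count filter with a minimum count of 10) with all 9 libraries in 1 model of 3 groups, and p-values were adjusted by Benjamini-Hochberg over 15936 genes. Normalised CPM are TMM-scaled. Each SE is the absolute log2 fold change divided by the square root of its F statistic. It is thus derived from the test, and only approximate for genes with few counts. Counting ratios have exact 95% intervals, the floor for a group at 0 was 3 counts over that group, and both cover counting error only. Replicates differed by more than sampling noise (chi-square per degree of freedom 1.94 to 4.88), with a median biological coefficient of variation of 5.09%. Ratios used the exact permutation test of SciPy 1.17.1, and figures matplotlib 3.10.9.

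The members and lists were chosen with earlier results of these data known. Members are given per library if they are Tnf or its receptors, among the 4 highest or 4 lowest called changes of a contrast, or the partner of such a gene. Of each list of related genes the 3 highest and 3 lowest called were named, and a few others were added once their values were known. The other settings were library sizes only, median-of-ratios scaling, TMM without muscle, erythroid and mitochondrially encoded genes, no low-count filter, DESeq2 1.42.0, fits of 6 libraries, a replicate block and leaving out each library.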

Additional observations from a re-analysis of the deposited data

How the results depend on the processing

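Of the 69 fold changes of tested members under 16 alternatives each, 1045 values kept direction and side of the threshold, 30 lost the call, 11 gained it and 16 changed sign. The fit of 6 libraries gave no value for Tnfsf13b in GMTT against GPI and Tnfsf13b in GPI against Sham, which had too few counts there. With library sizes only, 7 changed sign: in GPI against Sham Tnfrsf25 (-1.0) and Tnfrsf26 (-0.98), and in GMTT against GPI Tnfrsf19 (0.69), Tnfrsf21 (0.37), Tnfrsf25 (0.37), Tnfsf10 (0.079) and Tnfsf12 (0.12). It also gave calls to Tnfsf13b in GPI against Sham (-1.38), Tnfsf8 in GMTT against GPI (1.20) and Tnf in GMTT against Sham (0.65). With that scaling 2 members fell in GMTT against GPI (8 with TMM), and of the related genes 3 rose in GPI against Sham (8 with TMM) and 2 fell in GMTT against GPI (8 with TMM). With DESeq2 7 related genes fell in GMTT against Sham (13 in edgeR). These causes were not tested beyond the scaling itself. Leaving out 1 library changed the sign of values that were not called: Tnfrsf25 in GPI against Sham (-0.039 without Sham 1, up to 0.30), Tnfsf8 in GMTT against GPI (-0.23 without GMTT 3, -0.044 without GPI 1, up to 0.28) and, in GMTT against Sham, Tnfrsf13b (0.074 without GMTT 3, down to -0.30), Tnfrsf18 (-0.19 without GMTT 1, -0.051 without Sham 1, -0.12 without Sham 2, up to 0.26), Tnfrsf4 (0.048 without GMTT 3, down to -0.51) and Tnfsf14 (0.078 without Sham 2, down to -0.16). Without 1 library, members called higher and lower were 8 to 8 and 11 to 12 in GPI against Sham, 12 to 14 and 7 to 8 in GMTT against GPI, and 12 to 14 and 2 to 3 in GMTT against Sham. For the related genes these were 8 to 9 and 26 to 27, 23 to 25 and 6 to 9, and 5 to 8 and 10 to 13.

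A fit with the replicate block changed no call of a member, 69 of 69 values keeping direction and side, with 8 members higher and 12 lower in GPI against Sham. The labels do not say whether the numbers pair animals. Correlations of same-numbered libraries' deviations from their group means ran from -0.231 to 0.0907, and those of differently numbered libraries from -0.146 to 0.211. With 3 libraries per group these values cannot decide whether the numbers pair libraries. Depth limits the members under about 1 normalised CPM, such as Tnf, Tnfsf13b and Tnfrsf8, and those near 0 in GPI.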
